A study of Mus musculus with 10 samples.

Results

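Proteins of the mitochondrion are almost all made in the cytosol and reach their compartment through dedicated translocases. Precursors are recognised by receptors of the TOM complex and pass its channel in the outer membrane. From there the SAM complex inserts barrel proteins into the outer membrane, an oxidation relay traps small cysteine-rich proteins between the membranes, small TIM chaperones hand carrier proteins to the TIM22 complex, and the TIM23 complex with its motor pulls presequence proteins into the matrix, where a peptidase removes the presequence. The heart, whose cardiomyocytes are packed with mitochondria, depends on this supply. The genes of this machinery were followed here at the RNA level in the hearts of mice that overexpress SPOP, a substrate adaptor of the cullin-3 ubiquitin ligase.

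Genes were chosen by a rule on names, with earlier results of these data known. The rule took protein-coding rows named as Timm or Tomm followed by a number. It also took Pam16, Grpel1, Grpel2, Hspa9, Pmpca, Pmpcb, Chchd4, Gfer, Samm50, Mtx1, Mtx2 and Dnajc19. This gave 35 of the 24888 genes in the table, spread over 18 chromosomes. The 5 SPOP_CKI libraries came from hearts in which SPOP is overexpressed with Cre recombinase under the αMHC (Myh6) promoter, which is active in cardiomyocytes. The 5 Cre_control libraries, titled wild type in the labels, came from αMHC-Cre mice, so Cre is shared by the groups. All animals are labelled male, 8 to 10 weeks old and sham, and poly(A) RNA of whole heart tissue was sequenced.

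The deposited values are reads per gene scaled by a size factor of the library, called scaled reads below, from 15316293 to 17114869 reads per library. Spop stood at 31897 ± 6254 scaled reads (SD, n = 5) in SPOP_CKI and 3425 ± 317 (SD, n = 5) in controls. In 3 of the libraries labelled male (SPOP_CKI 1, SPOP_CKI 3 and Cre_control 5) Xist was at 4491 to 6578 scaled reads and 4 Y-linked genes summed to 0, which goes against the label. In the other 7 Xist was at 0 to 5.31 and the same genes summed to 2522 to 3860. SPOP_CKI 3 stood apart further, with reads in 13167 genes against 18531 to 20806 in the other 9 libraries. Where leaving these libraries out changed a call of an import gene, its value without them is given. Whole tissue was sequenced, so fewer cardiomyocytes and less RNA per cardiomyocyte cannot be told apart.

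Promoter sequence was read for the import genes because several of them moved together, and is shown for some of the genes described below. In the RefSeq promoter table (GRCm38.p6), 30 of the 35 genes had an entry, with 32 windows of 300 bases (250 before and 50 after a start). The 8 motifs below were searched on both strands as exact letters: NRF1 GCATGCGC, GABPA CCGGAAGT, YY1 AAGATGGC, ERRA TCAAGGTCA, CCAAT, HSE (GAA, TTC and GAA with NN between them), CRE TGACGTCA and CARE TGATGNAA, of which none contains another. NRF1 and GABPA are known regulators of nuclear genes for mitochondrial proteins, ERRA stands for the orphan receptor ERR alpha, and HSE is the heat shock element. The YY1 and CCAAT sites and some of the GABPA sites are not printed. The other sites follow as 30 bases, 5′ to 3′ on the gene's strand, with the motif or its reverse complement in capitals.
Grpel1, NRF1, chr5:36465138-36465167 (+): aaggggcgtccGCGCATGCtcagtgtgggc
Timm13, NRF1, chr10:80901143-80901172 (-): ttatattgtacGCATGCGCagcggggaggt
Timm23, GABPA, chr14:32201921-32201950 (-): tcgcgcttcccACTTCCGGgccgcacacag
Timm29, GABPA, chr9:21592498-21592527 (+): gagctctgaccACTTCCGGgctccactcac
Tomm70a, GABPA, chr16:57121623-57121652 (+): gccttctgaccCCGGAAGTggttctcccct
Timm8b, ERRA, chr9:50603795-50603824 (+): tttcgagggcTCAAGGTCActctacaaccc
Timm9, HSE, chr12:71136856-71136885 (-): attaggctTTCTAGAAATTTCgacagattc

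The GABPA letters were found in 7 of the 32 windows (21.9%), against 3.89% of all 32851 windows in the table. Their genes were Mtx2, Pmpcb, Timm10, Timm10b, Timm23, Timm29 and Tomm70a, of which Timm23 and Timm29 fell, Tomm70a rose and the others did not pass the test below. The NRF1 letters were in the windows of Grpel1 and Timm13 (6.25% against 2.71% of all windows), and the YY1 letters in those of Mtx1 and Timm50 (6.25% against 2.75%). The ERRA letters were in the Timm8b window (3.13% against 0.423%) and the HSE letters in the Timm9 window (3.13% against 0.603%). CCAAT was in 28.1% of import windows and 37.4% of all windows. Of the genes with it, Grpel1, Timm44 and Timm50 fell, Dnajc19, Samm50, Timm17a, Timm17b and Tomm40 did not pass, and Tomm6 was not tested. The CRE and CARE letters were in none of the import windows and in 1.79% and 3.97% of all windows. A match describes the letters in these windows and does not show a bound site.

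More import genes were lower than higher in SPOP_CKI hearts. Of the 34 genes tested, 8 fell (Grpel1, Timm44, Pmpca, Timm23, Timm8b, Timm13, Timm29 and Timm50) and 1 rose (Tomm70a), while 25 did not pass the threshold. Genes were tested with limma on log2(scaled reads + 1), with Benjamini-Hochberg adjustment over all genes tested and a threshold of 0.05. The share of import genes that fell, 23.5%, stood beside 12.3% over all 14212 genes tested, and the share that rose, 2.94%, beside 10.0%. In either direction 26.5% of import genes passed, against 22.3% of all genes, so the total is near the background. The median log2 fold change of the import genes was -0.38, against -0.11 for all genes tested, and 27 of the 34 values were negative. Fold change also followed GC content, with a Spearman rho of -0.50 over the import genes and -0.44 over all genes tested. For gene length rho was 0.24 and 0.23. After GC centring the 2 medians were -0.19 and -0.03. The part of GC content and length in the import values was not tested.

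**Figure D1:**
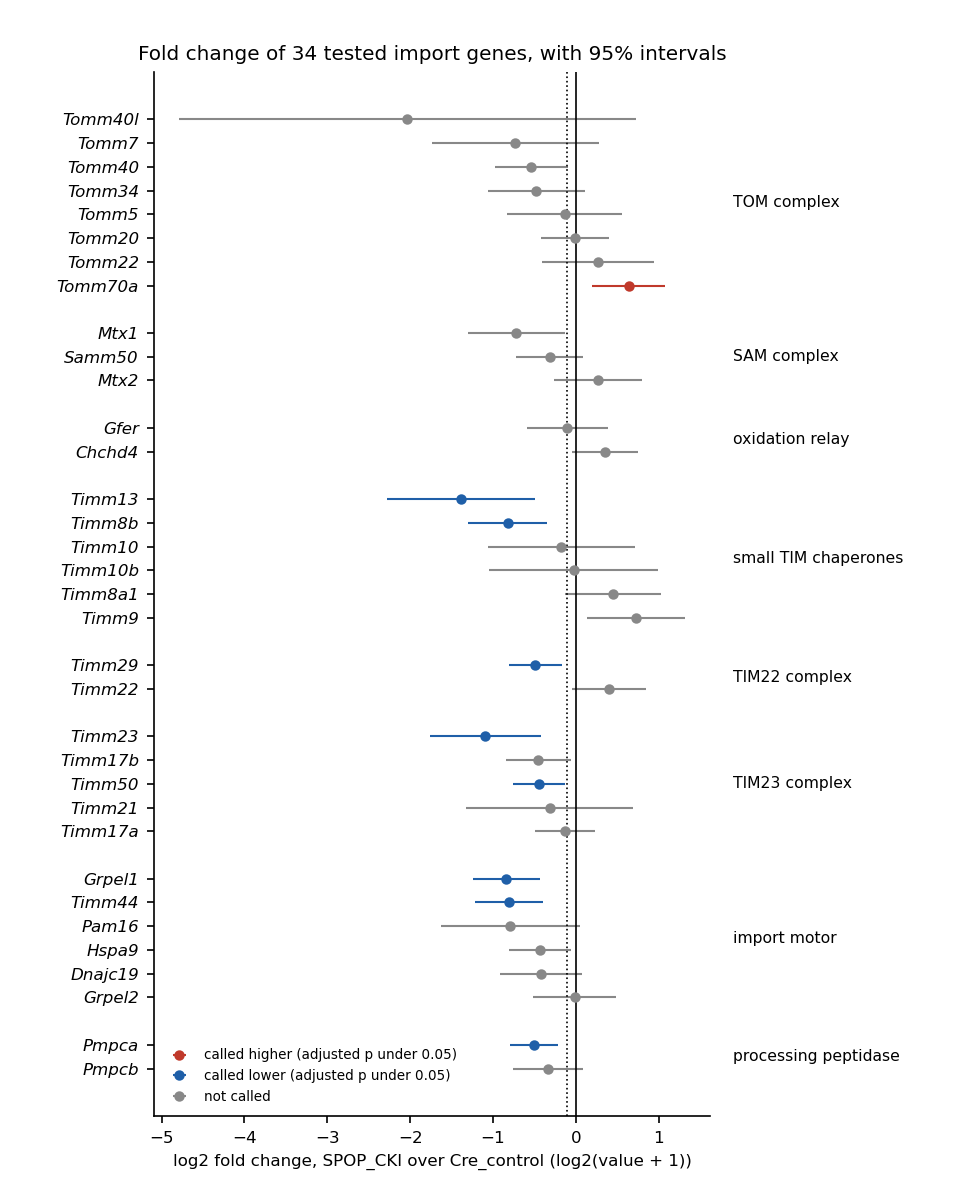
Log2 fold change of SPOP_CKI against Cre_control for the 34 import genes tested, by role, on the log2(scaled reads + 1) scale, with bars for the 95% confidence interval. Blue points passed as lower (8), the red point as higher (1), and grey points did not pass. The solid line is 0, the dotted line is the median of all genes tested, -0.11, and most points lie to its left.

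All 5 SPOP_CKI libraries lay below all 5 controls for 6 import genes (Timm23, Grpel1, Timm8b, Pmpca, Timm29 and Timm50) and above them for 2 (Tomm70a and Timm9). Over all genes tested, 12.3% were separated with SPOP_CKI lower and 9.01% with SPOP_CKI higher. In the authors' deposited table, 7 import genes were lower and 2 higher at an adjusted p-value under 0.05, beside 8.01% lower and 8.19% higher over its 24888 genes. Those shares include genes too low to be tested here, while 34 of the 35 import genes were tested, so the bases are unlike. The authors' list of lower genes holds Grpel1, Timm44, Pmpca, Timm23, Timm8b, Timm13 and Timm29, and their higher genes are Tomm70a and Timm9. The direction of the 9 genes that passed here was the same under 24 other settings of the analysis with 1 exception, Timm50 after centring on GC content.

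Among the TOM genes, with which the cytosolic Tomm34 was grouped, the receptor Tomm70a rose and none of the 8 tested fell, with a median log2 fold change of -0.31. Tomm70a (chromosome 16, 57121703 to 57156705) encodes a receptor that takes carrier precursors from cytosolic Hsp70 and Hsp90. Its scaled reads in SPOP_CKI 1 to 5 were 2576, 2216, 3969, 1918 and 2540.0, and in Cre_control 1 to 5 they were 1726, 1812, 1718, 1232 and 1837. The lowest SPOP_CKI heart lay just above the highest control, and SPOP_CKI 3 was the highest of all. The group means were 2644 ± 788 and 1665 ± 248 (SD, n = 5 each), and on the log scale of the test the gene was 1.55-fold higher (log2 fold change 0.64, SE 0.20, adjusted p = 0.0432). This call was kept in 3 of the 10 fits that left out a library (SPOP_CKI 2, 3 or 4), with log2 fold changes of 0.48 to 0.74 over the 10. Over all 24 settings the log2 fold change ran from 0.21 (GC centring) to 0.74 and the adjusted p from 0.0132 to 0.338. It was 0.37 with array weights and 0.46 with the 3 Xist-positive libraries removed, and the gene did not pass under either.

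The presequence receptor Tomm20 was level, with 1649.8 ± 469 scaled reads in SPOP_CKI and 1617 ± 173 in controls (SD, n = 5 each; log2 fold change -0.01, adjusted p = 0.981). Tomm22, the receptor at the centre of the complex, was read at 1099.5, 689, 2369.9, 1059 and 623 in SPOP_CKI and at 969.8, 831, 792, 983 and 756 in controls. Its log2 fold change of 0.26 (adjusted p = 0.555) came with 1 library far above the rest, and without SPOP_CKI 3 it was -0.03. The channel Tomm40 stood at 595 ± 139 in SPOP_CKI and 859.6 ± 174 in controls (SD, n = 5 each; log2 fold change -0.54, adjusted p = 0.0751), with overlapping groups. It passed with the Xist-positive libraries removed (log2 fold change -0.67, adjusted p = 0.0432).

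Tomm40l, the second form of the channel, was read at 172, 129.7, 0, 185 and 132 in SPOP_CKI and at 324, 268, 180.3, 270.1 and 148 in controls. It had the lowest fold change of the set, -2.03 on the log2 scale, with an SE of 1.26 and an adjusted p of 0.26. The size of this value comes from SPOP_CKI 3, where the gene is listed at 0, and it was -0.58 without that library. With the Xist-positive libraries removed it was -0.79 and passed (adjusted p = 0.0335). The small subunits Tomm5 and Tomm7 and the cytosolic cochaperone Tomm34 had log2 fold changes of -0.14, -0.73 and -0.48 and did not pass. Tomm6, a small subunit, was at 0 to 3.30 scaled reads in every library and fell below the filter on low values. It shares its position with Gm21981 on the same strand and with Usp49 on the other.

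None of the 3 SAM genes passed the test. Samm50, the channel that inserts barrel proteins, stood at 2898 ± 632 in SPOP_CKI and 3567 ± 491 in controls (SD, n = 5 each; log2 fold change -0.32, adjusted p = 0.229). Mtx1 and Mtx2 encode metaxins, partners of Samm50. Mtx1 was read at 182, 128, 62.2, 120.2 and 117 in SPOP_CKI and at 225, 209, 152, 192 and 182 in controls (log2 fold change -0.72, adjusted p = 0.0744). Mtx2 was read at 1811, 1082, 2803, 1487 and 1101 in SPOP_CKI and at 1411, 1415, 1269.8, 1127 and 1241 in controls (log2 fold change 0.27, adjusted p = 0.438). For Mtx1 only SPOP_CKI 1 reached into the control range, while for Mtx2 the SPOP_CKI libraries lay on either side of the controls. With the Xist-positive libraries removed Mtx1 passed (log2 fold change -0.66, adjusted p = 0.039). The log2 fold change of Mtx2 was 0.055 without SPOP_CKI 3.

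The genes of the oxidation relay did not pass either. Chchd4, the oxidoreductase that traps its substrates by disulfide exchange, stood at 472 ± 98.4 in SPOP_CKI and 368 ± 58.7 in controls (SD, n = 5 each; log2 fold change 0.35, adjusted p = 0.185). Gfer, the sulfhydryl oxidase that reoxidises it, stood at 232 ± 48.6 and 251 ± 65.9 (SD, n = 5 each; log2 fold change -0.10, adjusted p = 0.766).

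The 6 small TIM chaperones, which carry hydrophobic precursors across the intermembrane space, were split. Timm8b and Timm13 fell, the other 4 did not pass, and the median of the 6 was -0.10. Timm8b (chromosome 9, 50603910 to 50605320) was read at 735, 420.5, 748, 518 and 452 in SPOP_CKI and at 1029, 941, 862, 1444 and 787 in controls. Every SPOP_CKI heart lay below every control. The means were 575 ± 156 and 1012 ± 257 (SD, n = 5 each), and on the log scale of the test the gene was 1.77-fold lower (log2 fold change -0.82, SE 0.22, adjusted p = 0.021). Timm8b did not pass without Cre_control 1 or Cre_control 4, or after centring on gene length (log2 fold change -0.40, adjusted p = 0.214, in a range of 0.00192 to 0.214 over the 24 settings).

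Timm13 (chromosome 10, 80899450 to 80900969) works in a complex with Timm8 proteins. It was read at 498, 264, 115, 256 and 118 in SPOP_CKI and at 697, 577, 404, 927 and 374 in controls. Only SPOP_CKI 1 reached the range of the controls. The means were 250.2 ± 156 and 596 ± 227 (SD, n = 5 each). On the log scale of the test the gene was 2.61-fold lower, the steepest fall among the import genes that passed (log2 fold change -1.38, SE 0.41, adjusted p = 0.0321). Timm13 did not pass when SPOP_CKI 4, SPOP_CKI 5, Cre_control 1, Cre_control 2 or Cre_control 4 was left out, or after centring on GC content (log2 fold change -0.72, adjusted p = 0.136, in a range of 0.00704 to 0.136).

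Timm9 and Timm10 form the other chaperone complex of this compartment. Timm9 was read at 269, 218, 591, 265 and 205 in SPOP_CKI and at 197, 151, 159, 162 and 198 in controls. All 5 SPOP_CKI hearts lay above the controls, SPOP_CKI 5 by the smallest margin, and SPOP_CKI 3 was far above the rest. The gene did not pass (log2 fold change 0.72, SE 0.27, adjusted p = 0.0767), and its adjusted p ran from 0.0308 to 0.196 over the 24 settings, with DESeq2 and array weights under the threshold. Without SPOP_CKI 3 the log2 fold change was 0.46. Timm10 was read at 413, 349, 1022, 446 and 194 in SPOP_CKI and at 493, 555, 339, 832 and 303 in controls (log2 fold change -0.18, adjusted p = 0.774), with wide overlap.

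Timm8a1, the X-linked form of Timm8, was read at 232, 161, 396, 147 and 205 in SPOP_CKI and at 161, 180.2, 122, 183 and 145 in controls (log2 fold change 0.45, adjusted p = 0.242). Its highest values were in SPOP_CKI 3 and SPOP_CKI 1, which are also the SPOP_CKI libraries with Xist reads. Without the 3 libraries with Xist reads its log2 fold change was 0.09. Timm10b, a partner of the TIM22 complex, was low, at 16.5 to 92.0 scaled reads in SPOP_CKI and 35.4 to 77.1 in controls (log2 fold change -0.03, adjusted p = 0.971).

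In the TIM22 complex, which inserts carriers into the inner membrane, Timm29 fell and the channel Timm22 did not pass. Timm29 (chromosome 9, 21592722 to 21595970) was read at 867, 662, 1114, 848 and 819.5 in SPOP_CKI and at 1202, 1234, 1212, 1159 and 1159 in controls. The controls lay within a narrow band, and SPOP_CKI 3 came closest to it. The means were 862 ± 163 and 1193 ± 33.3 (SD, n = 5 each), and on the log scale of the test the gene was 1.4-fold lower (log2 fold change -0.49, SE 0.15, adjusted p = 0.0348). Timm29 kept its call in 2 of the 10 fits that left out a library (SPOP_CKI 3 or SPOP_CKI 5), with log2 fold changes of -0.59 to -0.40 over the 10. It also did not pass after GC centring (adjusted p = 0.139), after gene length centring (0.121) or with no filter on low values (0.0885). Timm22 stood at 352 ± 96.7 in SPOP_CKI and 259.7 ± 34.0 in controls (SD, n = 5 each; log2 fold change 0.40, adjusted p = 0.175).

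In the TIM23 complex, the gate for presequence proteins in the inner membrane, all 5 genes had negative fold changes, with a median of -0.44, and Timm23 and Timm50 fell. Timm23 (chromosome 14, 32180162 to 32201898), the channel, was read at 1001, 836, 375, 569.8 and 1117 in SPOP_CKI and at 1909, 1671, 1139, 2139.6 and 1131 in controls. The groups do not overlap, but the highest SPOP_CKI heart and the lowest control are almost level. The means were 779.7 ± 306 and 1598 ± 454 (SD, n = 5 each), and on the log scale of the test the gene was 2.13-fold lower (log2 fold change -1.09, SE 0.31, adjusted p = 0.0266). Timm23 did not pass when SPOP_CKI 4, Cre_control 1, Cre_control 2 or Cre_control 4 was left out, or after centring on gene length (log2 fold change -0.74, adjusted p = 0.0676, in a range of 0.00344 to 0.073).

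Timm50 (chromosome 7, 28305516 to 28312072), the receptor that meets the presequence at the inner membrane, was read at 692, 589, 629, 546 and 491 in SPOP_CKI and at 798, 923, 714, 855 and 706 in controls. Every SPOP_CKI heart was below every control by a small margin. The means were 589 ± 76.8 and 799 ± 92.5 (SD, n = 5 each), and on the log scale of the test the gene was 1.36-fold lower (log2 fold change -0.44, SE 0.14, adjusted p = 0.047). This was the call nearest to the threshold, kept in 2 of the 10 fits that left out a library (SPOP_CKI 1 or SPOP_CKI 3). The log2 fold changes ran from -0.50 to -0.38 over those 10 fits, and after centring on GC content the value was 0.22. Timm50 passed under 8 of the 24 settings, with adjusted p from 0.016 to 0.605.

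Timm21, a link between the TIM23 complex and the respiratory chain, was read at 299, 211, 1299.7, 246 and 163 in SPOP_CKI and at 421, 428, 402, 407 and 337 in controls. The other 4 SPOP_CKI hearts lay below all controls and SPOP_CKI 3 lay far above them. The log2 fold change was -0.32 (SE 0.46, adjusted p = 0.637). Without SPOP_CKI 3 it was -0.82 and the gene passed (adjusted p = 0.00566), as it did with all 3 Xist-positive libraries removed (-1.02, adjusted p = 0.00357). Timm17a and Timm17b are alternative partners of the channel. Timm17a stood at 1817 ± 336 and 1975 ± 265 (SD, n = 5 each; log2 fold change -0.13, adjusted p = 0.591), and the X-linked Timm17b at 284 ± 59.0 and 384 ± 42.7 (SD, n = 5 each; log2 fold change -0.45, adjusted p = 0.0877).

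The import motor, which pulls precursors into the matrix with ATP, had a median log2 fold change of -0.61, the lowest of the 8 roles. Grpel1 and Timm44 fell. Grpel1 (chromosome 5, 36464998 to 36474080), the nucleotide exchange factor of mitochondrial Hsp70, was read at 1195, 791, 1011, 991 and 700.2 in SPOP_CKI and at 1751, 1661, 1369.5, 2156 and 1415 in controls. The groups are clearly apart. The means were 938 ± 195 and 1670.3 ± 315 (SD, n = 5 each), and on the log scale of the test the gene was 1.79-fold lower (log2 fold change -0.84, SE 0.18, adjusted p = 0.00932). Grpel1 had the smallest adjusted p of the set, and it passed under all 24 other settings run, with log2 fold changes of -1.06 to -0.73.

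Timm44 (chromosome 8, 4259731 to 4275913) tethers the motor to the channel. It was described in full after its values were seen, because its groups overlap. It was read at 963, 502, 562, 722 and 599 in SPOP_CKI and at 1217, 1292, 1048, 1248 and 944 in controls. Only SPOP_CKI 1 exceeded the lowest control. The means were 669.7 ± 183 and 1149.6 ± 147 (SD, n = 5 each), and on the log scale of the test the gene was 1.75-fold lower (log2 fold change -0.81, SE 0.19, adjusted p = 0.0121). Timm44 passed in all 10 fits that left out a library and did not pass after centring on GC content (log2 fold change -0.46, adjusted p = 0.123, in a range of 0.00196 to 0.123).

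Hspa9, the mitochondrial Hsp70 that does the pulling, stood at 8268 ± 1716 in SPOP_CKI and 11006 ± 776 in controls (SD, n = 5 each). SPOP_CKI 1 and SPOP_CKI 3 were near the controls and the other 3 were below them, and the gene did not pass (log2 fold change -0.44, adjusted p = 0.0891). Pam16 and Dnajc19, which regulate the ATPase of Hspa9, had log2 fold changes of -0.79 (adjusted p = 0.155) and -0.42 (adjusted p = 0.195). With the Xist-positive libraries removed Hspa9 (log2 fold change -0.63, adjusted p = 0.0307) and Dnajc19 (-0.74, adjusted p = 0.0301) passed, as they did after GC centring (adjusted p = 0.0296 and 0.0319). Grpel2, the second exchange factor, was read at 372, 291, 149.8, 261 and 313 in SPOP_CKI and at 235, 271, 269.8, 268 and 302 in controls (log2 fold change -0.01, adjusted p = 0.972). Its controls were close to each other, and the SPOP_CKI hearts spread to both sides of them.

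The processing peptidase, which removes the presequence in the matrix, is made of the products of Pmpca and Pmpcb. Pmpca (chromosome 2, 26389339 to 26397122), the subunit that binds the presequence, was read at 1487, 1213, 1598, 1308 and 1408 in SPOP_CKI and at 1877, 1784, 1992, 2199 and 2094 in controls. The groups are apart and tight. The means were 1403 ± 150.2 and 1989 ± 166 (SD, n = 5 each), and on the log scale of the test the gene was 1.42-fold lower (log2 fold change -0.51, SE 0.13, adjusted p = 0.0185). Pmpca passed in all 10 fits that left out a library and did not pass with no filter on low values (adjusted p = 0.057, in a range of 0.0016 to 0.057). Pmpcb, the catalytic subunit, was read at 2122, 1439, 2852, 1736 and 1415 in SPOP_CKI and at 2364, 2405, 2376, 2356 and 2189.6 in controls (log2 fold change -0.34, adjusted p = 0.219), with SPOP_CKI 3 above the controls and the other 4 below. Without SPOP_CKI 3 Pmpcb passed (log2 fold change -0.50, adjusted p = 0.0262), as it did with all 3 Xist-positive libraries removed (-0.64, adjusted p = 0.0135) and after GC centring (-0.55, adjusted p = 0.0343).

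**Figure D2:**
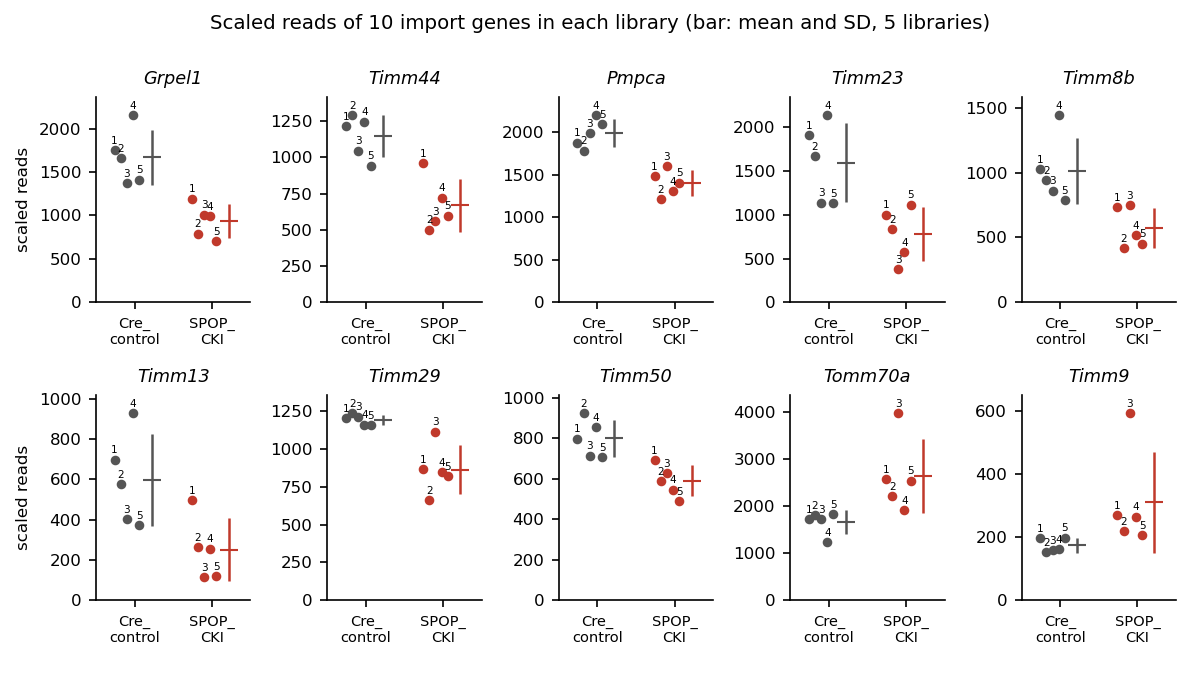
Scaled reads of 10 import genes, 1 panel per gene, with each point a library numbered as in the labels and each cross the group mean with its SD (n = 5), controls in grey and SPOP_CKI in red. SPOP_CKI libraries lie below all controls for Grpel1, Pmpca, Timm23, Timm8b, Timm29 and Timm50 and above them for Tomm70a and Timm9.

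Ratios of 2 genes within a library do not depend on how the library was scaled, and were compared between groups for 9 pairs of import genes by an exact two-sided permutation test with Benjamini-Hochberg adjustment over the 9. The Timm8 forms shifted most clearly. The log2 ratio of Timm8a1 to Timm8b was -1.66, -1.38, -0.92, -1.81 and -1.13 in SPOP_CKI and -2.67, -2.38, -2.80, -2.98 and -2.43 in controls. It was higher in 5 of 5 SPOP_CKI libraries, by 1.27 (exact permutation p = 0.0079, adjusted 0.0357). This call was lost when Cre_control 1, 2, 3 or 4 was left out (exact adjusted p = 0.0714 each), with differences of 1.19 to 1.34. The groups stayed apart in these fits. The smallest exact p with 5 against 5 or 5 against 4 libraries is 0.0079. Over 9 pairs it adjusts to 0.0714 for 1 pair alone and to 0.0357 when 2 pairs reach it. Full separation of this pair alone could not pass, so these fits cannot show whether the call rests on a control. The difference was also 1.27 without the 3 libraries with Xist reads, but 3 libraries against 4 gave an exact adjusted p of 0.129.

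The log2 ratio of Mtx1 to Mtx2 was -3.31, -3.07, -5.47, -3.62 and -3.22 in SPOP_CKI and -2.64, -2.75, -3.05, -2.55 and -2.76 in controls. It was lower in 5 of 5 SPOP_CKI libraries, by -0.99 on average (exact permutation p = 0.0079, adjusted 0.0357), although SPOP_CKI 2 and Cre_control 3 were almost level. SPOP_CKI 3 set much of the size, since the difference was -0.55 without it. The call was lost whichever control was left out, with an exact adjusted p from 0.0893 to 0.161, and without the Xist-positive libraries (-0.55, exact adjusted p = 0.129). Every SPOP_CKI ratio stayed below every control ratio in these fits. In the last of them, full separation of this pair and of Timm8a1 to Timm8b gives 0.129. That fit could not pass and cannot show whether the call rests on the libraries removed. The ratio of Grpel1 to Grpel2 was lower by -0.82 and that of Timm9 to Timm10 higher by 0.90 on the log2 scale (exact permutation p = 0.0397 and adjusted 0.0893 for each). The first passed without SPOP_CKI 3 and the second without Cre_control 5 (exact adjusted p = 0.0357 for each). Of the remaining 5 pairs, Timm17a to Timm17b and Tomm20 to Tomm22 had an adjusted exact p of 0.345, Tomm40 to Tomm40l and Pmpca to Pmpcb 0.429, and Timm10 to Timm10b 0.683. Tomm20 to Tomm22 passed without SPOP_CKI 5 (exact adjusted p = 0.0476). A ratio shows unequal change and does not say which gene of the pair moved.

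**Figure D3:**
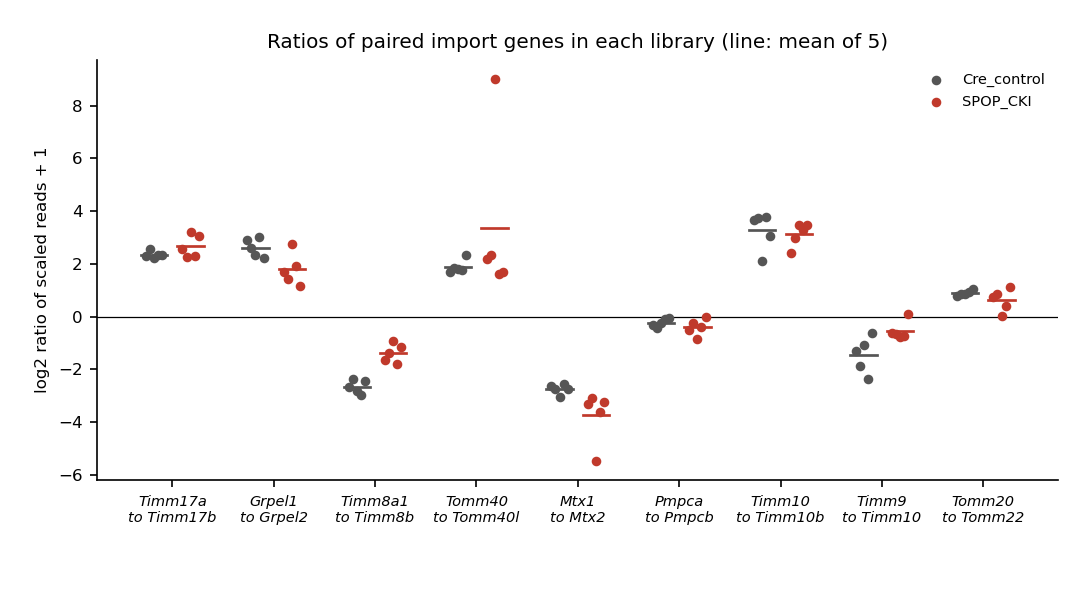
Log2 ratio of scaled reads (pseudocount 1) within each library for 9 pairs of import genes, with each point a library (controls grey, SPOP_CKI red) and each line the mean of 5. The SPOP_CKI points lie above all controls for Timm8a1 to Timm8b and below all controls for Mtx1 to Mtx2.

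The import genes did not move as a block in every heart. Relative to the control mean of each gene, the median of the 34 genes on the log2 scale was -0.43, -0.39 and -0.69 in SPOP_CKI 2, 4 and 5, with 27, 27 and 29 of the genes below the control mean. It was -0.12 in SPOP_CKI 1, with 21 genes below. In SPOP_CKI 3 it was 0.00, with 17 genes on each side, and the SD over the 34 genes was 1.72 there against 0.44 to 0.59 in the other SPOP_CKI libraries. The control medians ran from -0.19 to 0.15, so SPOP_CKI 1 and SPOP_CKI 3 lay within the range of the controls. The same median over all genes tested was -0.24 in SPOP_CKI 3 and -0.03 to 0.02 in the other libraries. Beside all genes of their own library, the import genes of SPOP_CKI 3 therefore stood higher. Among the controls Cre_control 4 was the highest, with a median of 0.49 for the 10 genes whose summed exons are under 2000 bases and 0.12 for the 24 longer ones.

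**Figure D4:**
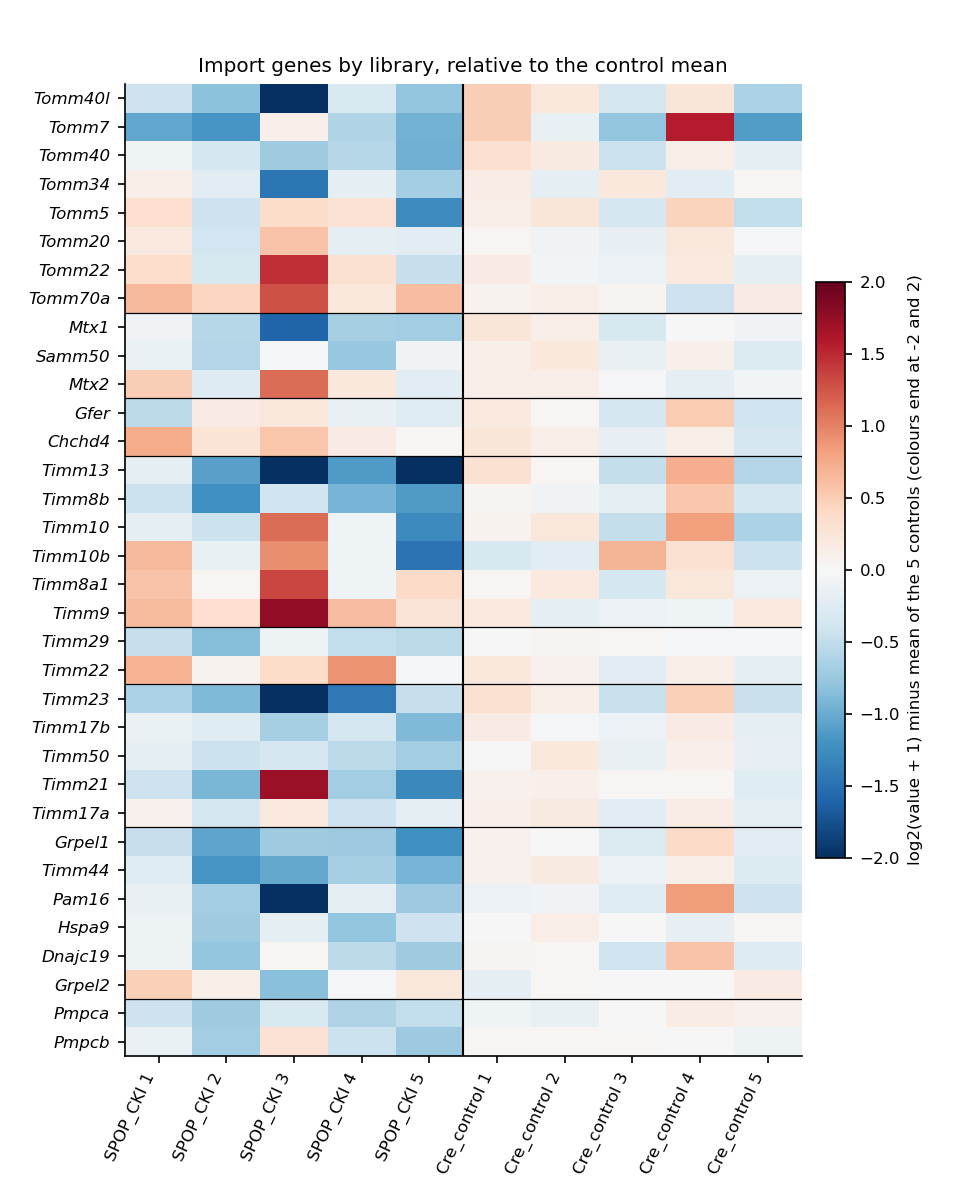
Each import gene (rows, by role) in each library (columns), as log2(scaled reads + 1) minus the mean of the 5 controls, with colours ending at -2 and 2. Blue prevails in SPOP_CKI 2, 4 and 5, SPOP_CKI 3 mixes the darkest blue and red cells, and most control cells are pale.

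The count of import genes that passed followed the libraries used. It was 9 with all libraries. Without SPOP_CKI 3 it was 11, where 31.0% of all genes passed, and 10 of the 11 were lower, where 17.3% of all genes were. With the 3 Xist-positive libraries removed it was 15, all lower, where 30.7% of all genes passed and 17.0% were lower. The median log2 fold change was then -0.61 for the import genes and -0.02 for all genes. It was 3 without Cre_control 1 or without Cre_control 4 and 4 without Cre_control 2, where 13.8%, 13.8% and 15.0% of all genes passed. Of the other settings, array weights gave 16 (37.4% of all genes), DESeq2 10 (29.1%), edgeR 8 (22.3%), no filter on low values 5 (10.5%) and centring on gene length 4 (21.3%). After GC centring Timm13, Timm44, Timm29, Timm50 and Tomm70a lost their calls, and Hspa9, Dnajc19 and Pmpcb passed. Of all 35 import genes 19 overlap an annotated gene on the opposite strand, among them 7 of the 9 that passed, and whether the counting used strand is not stated, so reads of such partners cannot be told apart.

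Levels of different genes were compared per kilobase of summed exons in the controls. Hspa9 led with 2799 ± 197 scaled reads per kilobase (SD, n = 5), followed by Timm8b with 1954 ± 497, Tomm5 with 994 ± 261, Timm23 with 895 ± 254 and Timm10 with 619 ± 259. At the other end were Tomm40l with 46.4 ± 14.0, Timm9 with 40.5 ± 5.25 and Timm10b with 14.0 ± 4.96, above Tomm6 with 0.715 ± 0.981. In this order 31 of the 34 pairs of neighbours had overlapping ranges. Those apart were Timm8b over Tomm5, Timm9 over Timm10b and Timm10b over Tomm6. Grpel1, at 473 ± 89.4, was well above Grpel2, at 66.8 ± 5.95, on this scale of level.

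Many import genes start close to a gene on the other strand. For 11 of the 35 genes a protein-coding gene started within 1000 bases in the opposite direction, and in 9 of these pairs both genes were tested. The 2 genes had fold changes of the same sign in 6 pairs and of opposite sign in 3. Timm23 and Parg, a poly(ADP-ribose) glycohydrolase, start 51 bases apart. Timm23 fell and Parg rose from 310 ± 56.4 in controls to 468 ± 60.0 in SPOP_CKI (SD, n = 5 each; log2 fold change 0.60, SE 0.16, adjusted p = 0.0243), with no overlap between groups. Frs3, which starts 644 bases from Tomm6, fell without overlap (log2 fold change -2.81, SE 0.81, adjusted p = 0.0298), while Tomm6 was not tested. Of the 10 partners tested these 2 passed, where 22.3% of all genes tested did. Timm8b and Sdhd, a subunit of complex II, start 98 bases apart, and Sdhd had a log2 fold change of -0.66 (adjusted p = 0.0877).

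Other genes of the pathway were taken from lists set by function, also with earlier results of these data known. Counts from these lists stand beside 12.3% of all genes tested that fell and 10.0% that rose. Of 15 further import and maturation genes, 3 fell and 1 rose, with a median log2 fold change of -0.45. Those that fell were Romo1 (log2 fold change -1.52, adjusted p = 0.0129), Immp2l, a subunit of the inner membrane peptidase (-1.52, adjusted p = 0.012), and Mipep, the intermediate peptidase (-0.76, adjusted p = 0.0182). Mtx3, the third metaxin, rose (1.29, adjusted p = 0.0041). The count that fell was 5 without SPOP_CKI 3 and 6 with the Xist-positive libraries removed, where 17.3% and 17.0% of all genes fell.

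Of 14 genes for folding and quality control in the matrix, 7 fell and none rose, with a median of -0.67. The steepest were Clpx, the unfoldase of the ClpXP protease (log2 fold change -1.74, adjusted p = 0.000721), Hscb, an iron-sulfur cochaperone (-1.60, adjusted p = 0.00567), and Trap1, the mitochondrial Hsp90 (-0.97, adjusted p = 0.003). The others were Clpp, Lonp1, Dnaja3 and Spg7, and 9 fell under each of those exclusions. Of the 7 cristae organising genes tested, 2410015M20Rik and Chchd6 fell and the median was -0.52, with 4 lower without SPOP_CKI 3 and 5 with the Xist-positive libraries removed.

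Of 17 twin-cysteine proteins that the oxidation relay imports, 4 fell and 2 rose, with a median of -0.49. The share that rose is near that of all genes tested. Ndufb7 (log2 fold change -1.08, adjusted p = 0.0159), Cox6b1 (-1.02, adjusted p = 0.0333), Ndufs5 and Chchd10 fell, and Coa5 (0.93, adjusted p = 0.00896) and Cox19 rose. Without SPOP_CKI 3 the count that fell was 8, and with the Xist-positive libraries removed it was 9. Of 6 cytosolic chaperones that deliver precursors, 3 rose and the others did not pass, with a median of 0.40. Those that rose were Hsp90aa1 (log2 fold change 2.17, adjusted p = 0.000409), Hspa8 (1.11, adjusted p = 0.0017) and Dnaja1 (0.62, adjusted p = 0.0113). Dnaja2 had a log2 fold change of -0.39 (adjusted p = 0.183), and it fell without SPOP_CKI 3 (-0.57, adjusted p = 0.0149) and with the Xist-positive libraries removed (-0.64, adjusted p = 0.0191). By name, 31 of 77 mitochondrial ribosomal protein genes fell and 1, Mrpl19, rose, with a median of -0.52, and 17 of 36 complex I genes fell, with a median of -0.85. Without SPOP_CKI 3 the counts that fell were 42 and 27, and with the Xist-positive libraries removed they were 52 and 35.

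Some markers of the cell types of the heart passed the test too, where 12.3% of all genes tested fell and 10.0% rose. Of 8 ventricular cardiomyocyte markers, Myh6, Myl3 and Tnni3 fell, Actc1 rose, and their summed level was 322695 to 618546 scaled reads in SPOP_CKI and 559500 to 734099 in controls. Of 5 endothelial markers, Pecam1, Cdh5 and Tie1 fell (sum 13159 to 18581 against 20842 to 23817). Of 6 fibroblast markers, Lum rose (sum 27118 to 93903 against 25400 to 29327), and of 6 leukocyte markers, Ptprc and Adgre1 rose (sum 4165 to 22366 against 4672 to 7803). Acta2 rose among 5 smooth muscle markers (sum 22481 to 33930 against 21334 to 28677), while the median log2 fold change of the 5 was -0.29. Of 5 erythroid markers, 4 fell (sum 5309 to 8887 against 13967 to 28111). Of 4 atrial markers, Nppa rose, and Myl7 and Sln were below the filter (sum 2753 to 18638 against 240 to 4225). Without SPOP_CKI 3 the fibroblast markers Col1a1 and Col3a1 rose too, Myl2 fell, and Adgre1 did not pass. With the Xist-positive libraries removed 4 of 6 fibroblast markers rose, and Actc1 and Pecam1 did not pass. The part of these shifts in the values of the import genes was not tested.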

How the data were processed

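The labels name the groups by title and genotype. The submitters' processing notes name featureCounts 1.5.0-p3, DESeq2 1.20.0 and the build mm10. The aligner, annotation release and strand setting are not stated in what was used here. The authors deposited a scaled signal per library (reads divided by a size factor), and per gene a log2 fold change and a p-value with its adjusted form. Whole reads were recovered for 100% of values at a tolerance of 0.001. Libraries of a group all differed by more than sampling noise (chi-square at least 13.8 per degree of freedom). Nothing more is stated on the source of the hearts. Each group holds libraries with and without Xist reads, so its libraries are not all repeats of the same heart. Whether each library came from its own animal is not stated, although the results speak of hearts. P-values cover the spread among these libraries, part of which may be technical.

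The test was limma 3.58.1 in R 4.3.3 (trend and robust empirical Bayes, two-sided) on log2(scaled value + 1), with genotype as the term, for the 14212 genes that reached 10 in 5 or more libraries. Fold changes are on this scale and understate changes of low genes. The procedure was tested on simulated data. Gene positions and lengths are those of the table, and overlaps and GC content come from GENCODE M21, which held 99.9% of the table's identifiers.

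Alternatives were edgeR 4.0.16 and DESeq2 1.42.0 on recovered reads, TMM and quantile scaling, no filter, pseudocounts of 0.5 and 5, array weights, GC centring, a replicate block, and leaving out each library. Chosen after seeing the data were leaving out the libraries with Xist reads, Xist as a covariate, centring on gene length, and leaving out SPOP_CKI 3 with Cre_control 4.

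The genes and lists were chosen with earlier results of these data known. Values per library are given for genes that passed without overlap, the 3 highest and 3 lowest fold changes, and paired genes, and from other lists for up to 3 genes that passed. Some further values were chosen after they were seen: those of Timm44, Tomm22, Timm21, Parg, Frs3 and Sdhd.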

Additional observations from a re-analysis of the deposited data

Results flagged for a closer look

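In 7 of 68 groups of 5 libraries, an import gene had a library whose gap to its neighbour was over 0.71 of the range of the group, where chance gives about 1 in 20. Of these, 3 were high values in SPOP_CKI 3: 1299.7 scaled reads for Timm21, 591 for Timm9 and 2369.9 for Tomm22. In Cre_control 4, Pam16 was high at 937 and Tomm70a low at 1232. In Cre_control 5, Pmpcb was low at 2189.6 and Timm21 low at 337.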

How the results depend on the processing

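Timm10b and Tomm6 had the fewest reads. The count of genes that passed, 3168, was 5320 with array weights and 1963 to 4400 when a library was left out (lowest without Cre_control 1, highest without SPOP_CKI 3). The count of import genes, 9, was 5 with no filter, 16 with array weights, 15 without the 3 libraries with Xist reads, 4 with centring on gene length and 3 to 11 when a library was left out. The count that fell, 8, was 5, 14, 15 and 4 under these settings and 3 to 10 when a library was left out. The count that rose, 1, was 2 with DESeq2 or array weights, 0 to 1 when a library was left out, and 0 with no filter, GC centring, gene length centring, the Xist covariate, without the libraries with Xist reads, and without SPOP_CKI 3 and Cre_control 4. The median of all genes, -0.11, was 0.03 with quantile scaling, -0.03 with GC centring and -0.04 with gene length centring, with import medians of -0.32, -0.19 and -0.27 against -0.38, and 25, 22 and 20 of 34 import genes negative against 27.

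Of the fold changes of single import genes, 686 were on the same side of the threshold with the same sign, 58 lost and 26 gained a call and 46 changed sign. The cause was not tested. After GC centring the log2 fold change was 0.21 for Mtx1, 0.037 for Tomm34, 0.22 for Timm50, 0.053 for Timm10 and 0.25 for Gfer. After gene length centring it was 0.10 for Timm21, 0.25 for Timm10, 0.29 for Tomm5, 0.25 for Gfer, 0.082 for Timm10b, 0.090 for Grpel2 and 0.044 for Tomm20. With edgeR it was 0.16 for Timm21, 0.14 for Timm10b, 0.064 for Grpel2 and 0.046 for Tomm20, and with DESeq2 0.16, 0.13, 0.045 and 0.033. Quantile scaling gave 0.025 for Timm10b and 0.084 for Grpel2, and array weights 0.0057 and 0.15. Without the libraries with Xist reads it was 0.14 for Grpel2, -0.21 for Tomm22 and -0.10 for Mtx2. For Grpel2 it was 0.0031 with the Xist covariate and 0.19 without SPOP_CKI 3 and Cre_control 4. When a library was left out it ran from -0.50 to 0.10 for Timm10, -0.26 to 0.14 for Tomm5, -0.20 to 0.024 for Gfer, -0.27 to 0.33 for Timm10b, -0.13 to 0.19 for Grpel2, -0.15 to 0.086 for Tomm20 and -0.035 to 0.45 for Tomm22.

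Without the libraries with Xist reads the log2 ratio differed by 1.27 for Timm8a1 to Timm8b and -0.55 for Mtx1 to Mtx2, and by 0.059 for Pmpca to Pmpcb. When a library was left out it ran from 1.16 to 1.38 for Timm8a1 to Timm8b, -1.15 to -0.55 for Mtx1 to Mtx2, -1.06 to -0.67 for Grpel1 to Grpel2, -0.43 to 0.027 for Timm10 to Timm10b, 0.67 to 1.11 for Timm9 to Timm10 and -0.40 to -0.12 for Tomm20 to Tomm22.

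The replicate numbers share no stated source, and same-numbered libraries deviated together with correlations of 0.03 to 0.16. In 2 of 5 SPOP_CKI libraries the best match was the own number. A fit with the replicate block called 2946 genes and 8 import genes (1 higher, 7 lower); Timm29 (adjusted p = 0.0578) and Timm50 (0.0693) did not pass in it and Tomm40 did.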
